A study of Mus musculus with 6 samples.

Results

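The genes described here encode the proteins of the cytosolic ribosome, followed through chemically induced skin tumours of the mouse. They were taken by name: a gene model belonged if its symbol was Rpl (large subunit) or Rps (small subunit), then a number, then at most a single letter a, x, y or l. This gave 77 of 23726 gene models, 46 of the large subunit and 31 of the small subunit. Pseudogene models and the kinases named after Rps6 were left out. Ribosomal proteins with symbols of another form (among them Rplp0, Rplp1, Rplp2, Rpsa and Fau) did not match the name and are given beside the set.

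RNA was sequenced in 6 libraries. The cultured cells were mSCC-38 (1 library), labelled tumorigenic, and mSCC-20 (1 library), labelled non-tumorigenic, both isolated from a tumour raised with DMBA and TPA, a mutagen and a growth-promoting phorbol ester applied to the skin. The biopsies were of a DMBA/TPA tumour (1 library), DMBA/TPA papillomas (2 libraries, papilloma 1 and papilloma 2), which are benign outgrowths, and healthy skin (1 library). The labels give no strain, sex, age, dose or time, and do not say whether any of the biopsies came from the same animal. Each culture stands for a single isolate, and the biopsies are whole tissue. The 2 papillomas are the only replicates, and the spread between them may be technical in part. Every p-value below rests on that spread and on spread borrowed from the other genes.

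Ribosomal proteins are made in near-equal amounts and assembled with ribosomal RNA in the nucleolus. Their messenger RNAs begin with a run of C and T bases, the terminal oligopyrimidine tract, through which the mTOR kinase controls their translation, and Myc raises transcription of many of them. Mammalian genomes carry many processed pseudogenes of these genes, near-copies of the messenger RNA without introns. A short read from such a transcript can match several places at once. When unassembled, Rpl5 and Rpl11 bind Mdm2, the ubiquitin ligase that degrades p53.

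Total counts per library were between 25140489 in papilloma 1 and 42992597 in the tumour, and the RNA integrity number in the labels was lowest in skin (7.5) and highest in mSCC-38 (9.6). Values below are CPM, counts per 1000000 counts after scaling by TMM (trimmed mean of M-values), unless RPKM is named. RPKM are the deposited values, divided by gene length and not scaled by TMM here. The 7 keratinocyte markers examined were present in every library. They summed to 8319 CPM in mSCC-38, 17246 in mSCC-20, 32259 in the tumour, 61866 in papilloma 1, 49308 in papilloma 2 and 15312 in skin. The 6 hair follicle markers summed to 8.78 CPM in mSCC-38, 12.9 in mSCC-20, 26.5 in the tumour, 29.4 in papilloma 1, 5142 in papilloma 2 and 17194 in skin. The 6 leukocyte markers summed to 13.4 CPM in mSCC-38 and 5.58 CPM in mSCC-20, against 192 to 388 CPM in the biopsies. The 5 fibroblast markers summed to 162 CPM in mSCC-38 and 10.5 CPM in mSCC-20, against 2516 to 3626 CPM in the biopsies. The 8 skeletal muscle markers summed to 13.1 CPM in mSCC-38, 9.90 in mSCC-20, 634 in the tumour, 1778 in papilloma 1, 1071 in papilloma 2 and 9170 in skin. In whole biopsies, fewer cells of a type and less RNA per cell cannot be told apart.

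How much of each transcript occurs in other genes was set beside its level. For each gene, every 35-base window of its transcript was looked up in the transcripts of all other genes in GENCODE M21 (build GRCm38), pseudogenes included. All 77 genes were matched to a transcript. The coding stretches below, 5′ to 3′, are those shared with the largest number of other genes, with the 35 shared bases in capitals and 5 bases of context on each side. They are shown for 2 of the highest genes and for the 5 with the lowest mean RPKM.
Rpl4: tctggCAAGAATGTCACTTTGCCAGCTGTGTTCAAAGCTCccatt
Rpl8: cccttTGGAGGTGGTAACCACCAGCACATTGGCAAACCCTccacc
Rpl10l: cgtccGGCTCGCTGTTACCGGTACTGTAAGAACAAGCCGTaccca
Rpl29: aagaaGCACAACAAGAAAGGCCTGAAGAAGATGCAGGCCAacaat
Rpl28: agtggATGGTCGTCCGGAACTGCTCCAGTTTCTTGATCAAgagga
Rpl3: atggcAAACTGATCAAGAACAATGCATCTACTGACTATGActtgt
Rps28: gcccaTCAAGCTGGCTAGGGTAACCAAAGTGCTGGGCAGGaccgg
The capitals of Rpl4 (coding bases 57 to 91) occur in 2 other genes, both pseudogenes, and those of Rpl8 (bases 633 to 667) and of Rpl10l (bases 15 to 49) in 1 each, also a pseudogene. Those of Rpl29 (bases 144 to 178) occur in 45 pseudogenes, those of Rpl28 (bases 22 to 56) in 4, those of Rpl3 (bases 889 to 923) in 21 and those of Rps28 (bases 26 to 60) in 9. Of all coding windows, 33.2% were shared in Rpl4 and 10.7% in Rpl8, against 31.6% in Rpl10l, 98.2% in Rpl29, 97.0% in Rpl3 and every window in Rpl28 and Rps28. Rpl10l, the lowest of all, thus shared no more than Rpl4.

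Over the whole transcript, the 77 genes shared a median of 60.0% of their 35-base windows with other genes, from 0% in Rpl3l to 98.7% in Rps27. Of the 5 genes with the lowest mean RPKM, Rpl10l (19.1%), Rpl28 (49.5%) and Rps28 (53.6%) lay below that median. Rpl29 (76.8%) and Rpl3 (86.9%) lay above it. The 76 genes of the mitochondrial ribosome, which have few pseudogenes, shared a median of 6.46%. Mean RPKM over the 6 libraries was lower where more was shared. The 8 genes with under 10% of windows shared had a median of 282 RPKM, and the 19 genes with 10% to 50% shared had a median of 51.0 RPKM. The 29 genes with 50% to 80% shared had a median of 33.4 RPKM, and the 21 genes with at least 80% shared had a median of 1.78 RPKM. In that last class none reached 100 RPKM, and the highest was Rpl13 at 86.8 RPKM. Across the 77 genes, the Spearman correlation between the shared percentage and mean RPKM was -0.49, and -0.52 with windows of 50 bases. This describes genes measured in the same libraries, related through shared pseudogenes, and the length of the reads and the handling of reads with several matches are unknown from the sources used here. The median gene of the set had 16.3 RPKM, against 28.7 RPKM for the mitochondrial ribosomal proteins.

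**Figure D1:**
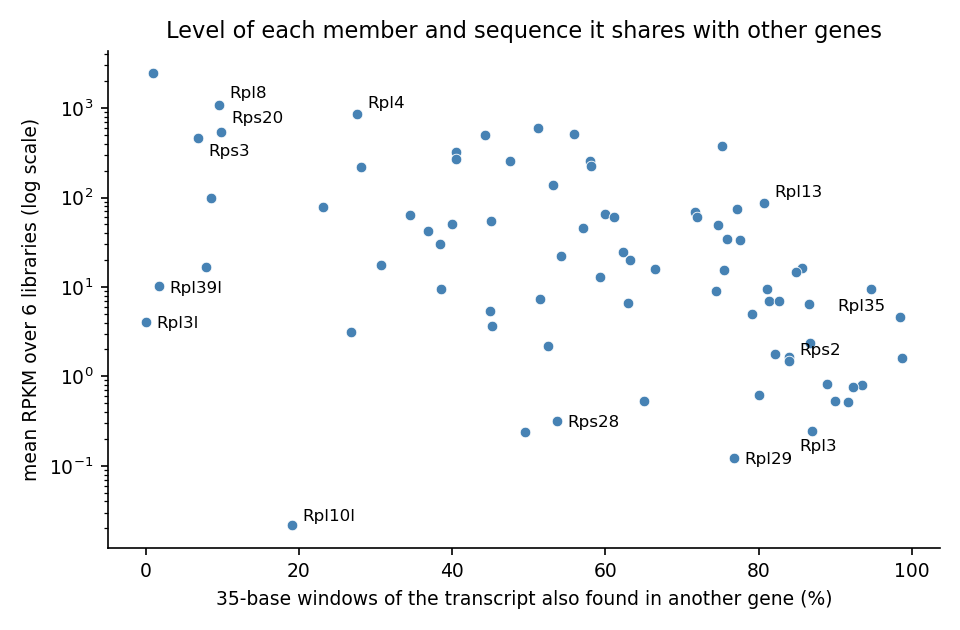
Mean RPKM over the 6 libraries (log scale) against the percentage of a transcript's 35-base windows that also occur in another gene, 1 point per gene, n = 77. Rpl8 stands at the upper left with 1092 RPKM and 9.55% shared, and no gene with at least 80% shared reaches 100 RPKM.

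Per length, Rpl8, beside the peptidyl transferase centre, was among the most abundant, with 1223 RPKM in mSCC-38, 1645 in mSCC-20, 751 in the tumour, 979 in papilloma 1, 963 in papilloma 2 and 990 in skin. Its mean was 1092 RPKM. In CPM with TMM it had 981 and 868 in papillomas 1 and 2 against 703 in skin, so its order against skin depends on the scaling. Also among the 5 highest in mean RPKM were Rpl4 (864), which lines the exit tunnel, and Rps20 (543). At the other end stood Rpl10l (0.0217), Rpl29 (0.122), Rpl28 (0.240), Rpl3 (0.248) and Rps28 (0.318). Rpl3, a core protein of the large subunit, had only 12 counts in mSCC-38, 16 in mSCC-20, 14 in the tumour, 6 in papilloma 1, 8 in papilloma 2 and 11 in skin. Between 19 and 28 of the 77 genes had fewer than 100 counts in a library, with the fewest such genes in mSCC-20 and the most in papilloma 1. The 5 genes with most counts held 58.8% to 64.3% of the counts of the set. In every library they included Rpl4, Rps3 and Rpl8, and in mSCC-38 also Rpl32. The set's total is therefore mostly the sum of a few genes, and ratios gene by gene are given beside it.

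The counting of neighbouring models touched some members. Of the 77, 31 overlap another gene model, 20 of them only models of small RNAs hosted in introns, and 6 overlap a model on the opposite strand. Rpl26 and the overlapping model Gm15772 carried the same counts in every library, 40090 in all. Rpl34 and its overlapping pseudogene model Rpl34-ps1 had 616 and 512 counts in all, and whether reads were counted for both is not stated.

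Promoters were read for the 57 members with an entry in the RefSeq promoter table (GRCm38.p6, from 250 bases before to 50 after the first listed start). A run of at least 8 C or T bases on the gene's strand, reaching to within 5 bases of the start, was present in 19 of 57 (33.3%), against 9.30% of 27025 genes. The letters CGGAAG, read on both strands, were present in 39 of 57 (68.4%) against 17.2% of all genes. The letters TCTCGCGA, also on both strands, were present in 9 of 57 (15.8%) against 1.08%, and 8 of those 9 promoters held CGGAAG too; these letters cannot overlap each other. TATAAA on either strand was found in 4 of 57 (7.02%) against 14.2%. The windows below run from 30 bases before to 10 after the start, on the gene's strand, with a C or T run of at least 5 near the start in capitals. They are shown for an abundant gene, for 4 genes that fell in the tumour against the papillomas, and for the muscle paralogue Rpl3l. Rps19, which also fell, is not shown: its longest run near the first of 3 listed starts has 4 bases.
Rpl4, chr9:64173357-64173396, plus strand: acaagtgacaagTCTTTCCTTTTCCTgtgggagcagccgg
Rpl18, chr7:45718041-45718080, plus strand: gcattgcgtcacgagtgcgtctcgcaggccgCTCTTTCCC
Rpl27a, chr7:109519165-109519204, plus strand: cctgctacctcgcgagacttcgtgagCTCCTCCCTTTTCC
Rps15a, chr7:118116138-118116177, minus strand: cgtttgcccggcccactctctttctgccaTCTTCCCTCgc
Rpl22, chr4:152325696-152325735, plus strand: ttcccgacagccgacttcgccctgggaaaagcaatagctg
Rpl3l, chr17:24727796-24727835, plus strand: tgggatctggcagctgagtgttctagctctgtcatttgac
In these windows such a run is present in Rpl4, Rpl18, Rpl27a and Rps15a and in neither Rpl22 nor Rpl3l. Rpl22 and Rpl3l each have 2 starts listed, and only the first was read. The run of Rpl4 ends before the listed start, so its window does not show that the message begins with the tract.

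As a share of all counts, the 77 genes took 0.724% in mSCC-38, 1.22% in mSCC-20, 0.586% in the tumour, 0.821% in papilloma 1, 0.861% in papilloma 2 and 0.825% in skin. The exact (Clopper-Pearson) 95% intervals cover counting error only and were narrow, for example 0.583% to 0.588% in the tumour. The tumour had the lowest share and mSCC-20 the highest, while skin lay between the papillomas. The papillomas averaged 0.841% ± 0.0283 (SD, n = 2), and their difference from skin was within that spread. After TMM scaling, the summed level in papillomas was 1.36 times that in skin. The large subunit supplied 49.9% of the set's counts in mSCC-38, 47.8% in mSCC-20, 44.6% in the tumour, 43.0% and 42.2% in papillomas 1 and 2 and 45.9% in skin.

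**Figure D2:**
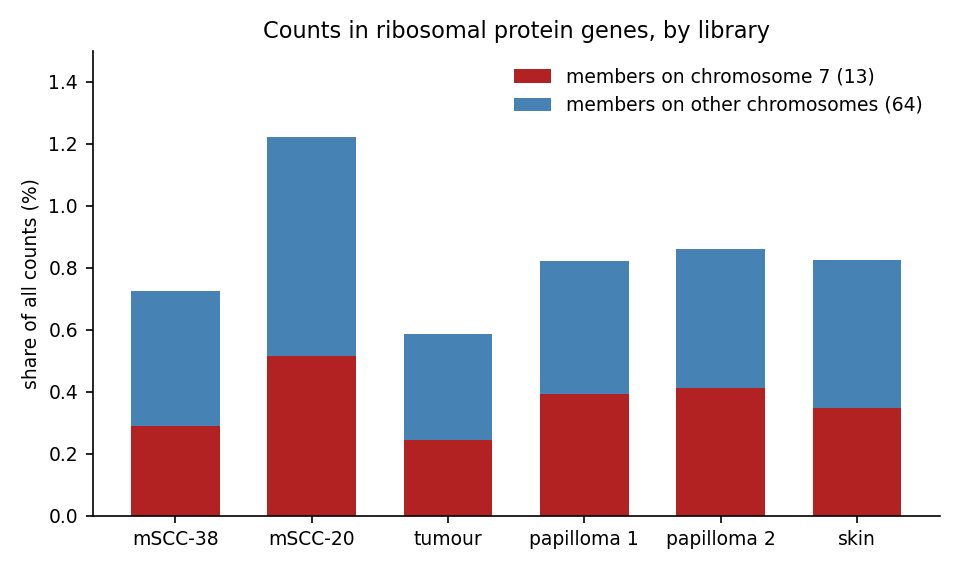
Share of all counts (%) held by the 77 genes in each library, split into the 13 members on chromosome 7 (red) and the 64 on other chromosomes (blue). The tumour bar is lowest at 0.586%, the mSCC-20 bar highest at 1.22%, and the red part is 47.9% of the bar in each papilloma against 39.8% to 42.3% in the other libraries.

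The first comparison asks how the set differs between benign papillomas and healthy skin. Among members that reached 10 CPM in either group, the papillomas were a little above skin relative to other genes: the median log2 ratio (0.5 CPM added) of 44 members was 0.30, against 0.07 over all 10830 genes. Scaled by total counts alone the members' median was -0.13 and that of all genes -0.37, so the sign of a member's change depends on the scaling while its place above the median of all genes did not (0.23 above with TMM, 0.24 above with total counts). The other 33 members, under 10 CPM in both groups, had a median log2 ratio of 0.44 where both had counts (nothing added). With TMM, 36 of 44 members lay above the median of all genes. Both papillomas exceeded skin in 35 of 44 members with TMM, where 49.9% of all genes did, and in 7 of 43 with total counts alone, where 24.5% did. Between the papillomas themselves the members were close: the log2 ratio of papilloma 2 to papilloma 1 had an SD of 0.14 over 43 members, against 0.69 over all genes. The summed keratinocyte markers were also higher in the papillomas than in skin and the hair follicle markers lower, and their part in these values was not tested.

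No member rose in papillomas against skin and 1 of the 72 tested fell, by edgeR's quasi-likelihood test with an adjusted p under 0.05 over 16353 genes. In that comparison 12.0% of all genes tested were called higher and 14.1% lower. At an unadjusted p under 0.05, 7 of the 72 were higher and 2 lower, where 19.9% of all genes were higher and 23.6% lower. DESeq2's Wald test called 5 members higher (14.4% of all genes) and 1 lower (10.6% of all genes). The other 5 members (Rpl10l, Rpl28, Rpl29, Rpl36 and Rps28) did not pass the filter on low counts.

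The member that fell was Rpl3l, which replaces Rpl3 in the ribosomes of skeletal muscle and heart. It had 3.84 and 2.90 CPM in papillomas 1 and 2, against 26.2 CPM in skin (log2 fold change -2.96, SE 0.29, edgeR adjusted p = 0.00797). The summed skeletal muscle markers were 1778 and 1071 CPM in the papillomas against 9170 CPM in skin, and their part in the fall of Rpl3l was not tested.

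The 5 members that DESeq2 alone called higher included Rps3, Rpl13a and Rps26. Rps3, at the entry of the messenger RNA channel, had 1195 and 1089 CPM in papillomas 1 and 2 against 635 CPM in skin (log2 fold change 0.85, SE 0.26, edgeR adjusted p = 0.0726). Rpl13a, known also as a silencer of translation of inflammatory messages, had 287 and 299 CPM in the papillomas against 179 CPM in skin (0.72, SE 0.20, edgeR adjusted p = 0.0603). Both papillomas stood above skin for these genes, and the edgeR test did not call them. Rpl18, at 66.4 and 60.2 CPM in the papillomas against 42.7 CPM in skin, missed the threshold with both tools (edgeR adjusted p = 0.0525, DESeq2 adjusted p = 0.0761). In the other direction stood Rpl15, with 24.1 and 27.4 CPM in the papillomas against 38.1 CPM in skin (-0.56, SE 0.16, edgeR adjusted p = 0.0617), and Rpl5, with 15.4 and 14.0 CPM against 19.0 CPM (edgeR adjusted p = 0.218). Neither passed the threshold.

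The next comparison sets the tumour against the papillomas. Here the set was lower in the tumour: the median log2 ratio of 43 members was -0.49 against 0.04 over all 10415 genes, and 41 of the 43 lay below the median of all genes. The 34 members under 10 CPM had a median of -0.45 (nothing added). The gap to all genes was -0.53 with TMM and -0.52 with total counts alone. The tumour was below both papillomas in 39 of 43 members with TMM, where 42.1% of all genes were, and in 34 of 42 with total counts alone, where 34.0% were. The summed keratinocyte markers were lower in the tumour than in both papillomas, and their part in these values was not tested. The medians were alike for the large subunit (-0.50, 22 genes) and the small subunit (-0.46, 21 genes). This comparison shares the papilloma libraries with the preceding one, so a library value that is high in the papillomas enters both with opposite sign.

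In the tumour 0 members rose and 7 of 72 fell by edgeR, against 11.9% of all genes called higher and 10.6% called lower. The share of members that fell, 7 of 72, is near that background. At an unadjusted p under 0.05, 0 of the 72 were higher and 24 lower, where 19.8% of all genes were higher and 18.7% lower. DESeq2 called 0 higher (11.0% of all genes) and 13 lower (11.6% of all genes). With 1 tumour library, its own spread is assumed to be that of the papillomas.

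Rpl22, which binds RNA and is known as a tumour suppressor in T cells, had the lowest ratio among the called members above 10 CPM, with 86.2 CPM in the tumour against 238 and 218 CPM in papillomas 1 and 2 (log2 fold change -1.41, SE 0.21, edgeR adjusted p = 0.0142). In skin it had 219 CPM, so the tumour stood below all 3 other biopsies. Its paralogue Rpl22l1 had 8.21 CPM in the tumour against 4.22 and 5.16 CPM in the papillomas, a log2 fold change of 0.80 that did not pass the test (SE 0.30, edgeR adjusted p = 0.124). Rpl27a fell to 25.1 CPM in the tumour against 52.6 and 51.7 CPM in the papillomas (-1.06, SE 0.14, edgeR adjusted p = 0.0114). Rps19, mutated in the human Diamond-Blackfan anaemia, fell to 16.8 CPM against 40.4 and 31.5 CPM (-1.10, SE 0.21, edgeR adjusted p = 0.0269). In Rpl22, Rpl27a and Rps19 the tumour lay below both papillomas, as it did in 42.1% of all genes with TMM.

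The other members that fell included Rps15a, Rpl18 and Rpl3l. Rps15a had 56.4 CPM in the tumour against 108 and 102 CPM in the papillomas. Rpl18 had 36.1 CPM in the tumour against 66.4 and 60.2 CPM in the papillomas. Rpl3l had 0.902 CPM against 3.84 and 2.90 CPM, beside summed muscle markers of 634 CPM in the tumour and 1778 and 1071 CPM in the papillomas. Rps3 was also low in the tumour, at 623 against 1195 and 1089 CPM, and only DESeq2 called it (edgeR adjusted p = 0.0760). The highest ratios belonged to Rps21 (129 CPM in the tumour against 97.8 and 121 CPM in the papillomas) and Rpl7 (63.1 against 53.1 and 56.6 CPM), neither of which passed the test. Rpl11, at 3.54 CPM in the tumour against 3.94 and 4.49 CPM, and Rpl5, at 9.95 against 15.4 and 14.0 CPM, were not called (edgeR adjusted p = 0.605 and edgeR adjusted p = 0.118). Rps6, the small subunit protein phosphorylated by the S6 kinases, had 11.3 CPM against 17.7 and 20.3 CPM (edgeR adjusted p = 0.0598).

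**Figure D3:**
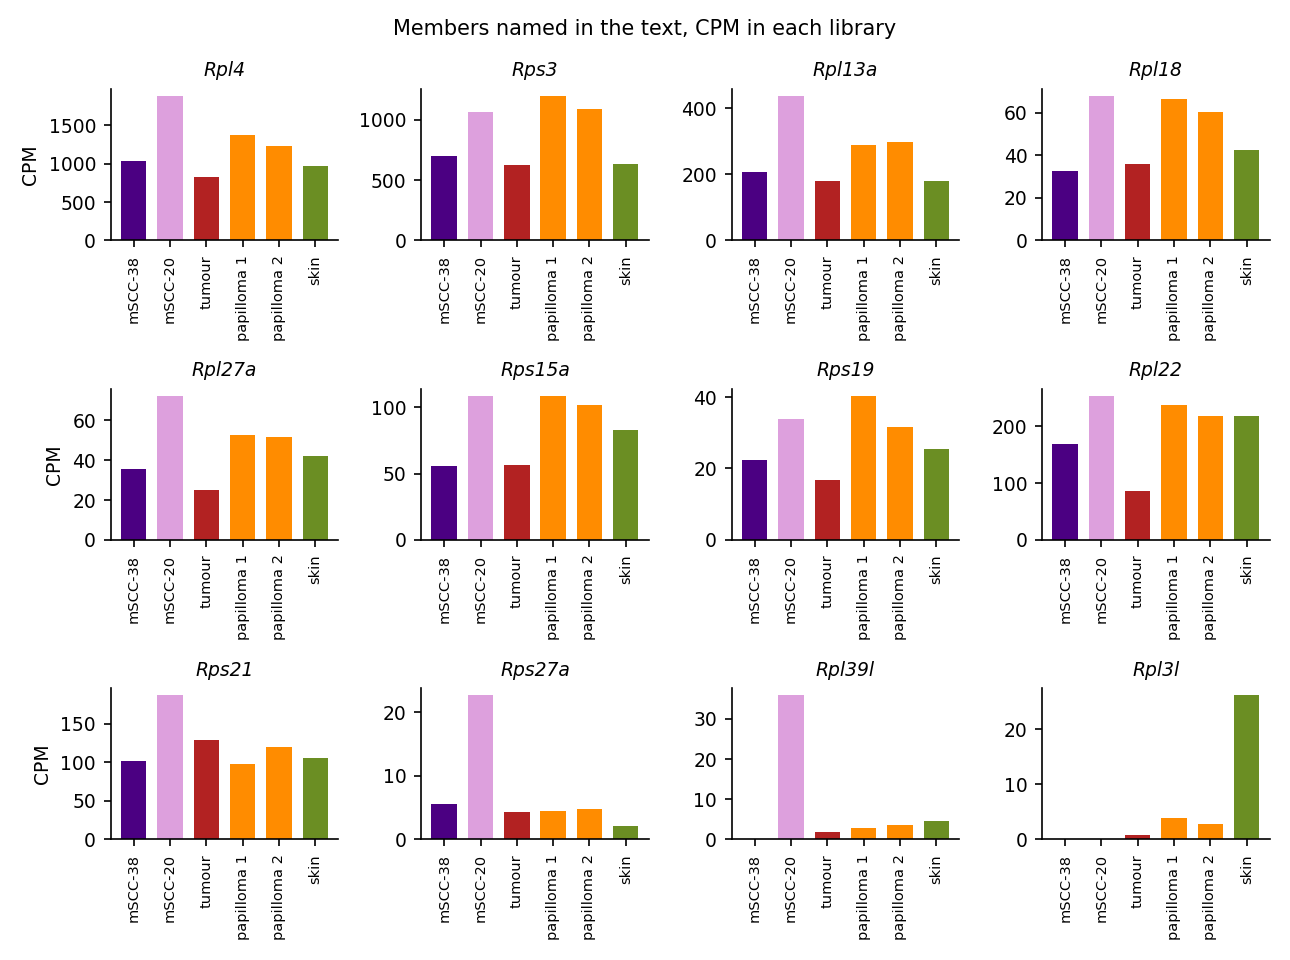
CPM of 12 members in each library, 1 bar per library and no error bars, in the order mSCC-38, mSCC-20, tumour, papilloma 1, papilloma 2 and skin. Rpl4, Rps3, Rpl13a and Rpl18 are higher in both papillomas than in tumour and skin, Rpl22 is lowest in the tumour, Rps27a and Rpl39l stand out in mSCC-20, and Rpl3l in skin.

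The members that were highest in papillomas lay largely on chromosome 7, a split made after these values were seen. Of the 77 genes, 13 are on that chromosome, and 9 of these had at least 10 CPM in the comparison of papilloma with skin, among them Rps3, Rps9, Rpl13a, Rpl18, Rps19, Rpl27a and Rps15a. Their log2 ratios ran from 0.30 to 0.85 with a median of 0.56, against a median of 0.27 for the 35 members elsewhere. Over all genes, the 796 on chromosome 7 had a median of 0.27 and the 10034 elsewhere a median of 0.05, and chromosome 7 ranked 1 of the 20 chromosomes with at least 100 such genes. In the tumour against the papillomas, the 9 members had a median of -0.87 and the other 34 a median of -0.45. All 760 genes of chromosome 7 had a median of -0.16, against 0.05 elsewhere, and the chromosome ranked 19 of 20. In the tumour against skin the chromosome's members (-0.24) and the other 33 (-0.16) were close. Of the 34 members elsewhere, 2 lay above the median of all genes in the tumour against the papillomas.

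Among the calls, 4 of the 7 members that fell in the tumour by edgeR are on chromosome 7 (Rpl18, Rpl27a, Rps15a and Rps19), where 12 members were tested. So are 8 of the 13 that fell by DESeq2 and 4 of the 5 that DESeq2 called higher in papillomas against skin. Of all genes tested on the chromosome, edgeR called 18.7% higher in papillomas against skin and 14.6% lower in the tumour against papillomas. DESeq2 called 22.3% of them higher and 15.9% lower in the same comparisons. Of the 12 members tested there, edgeR called 0 higher in papillomas against skin. The 13 members took 0.288% of counts in mSCC-38, 0.516% in mSCC-20, 0.245% in the tumour, 0.394% and 0.413% in papillomas 1 and 2 and 0.348% in skin. The other 64 took 0.436% in mSCC-38, 0.705% in mSCC-20, 0.341% in the tumour, 0.427% and 0.448% in the papillomas and 0.477% in skin. Without chromosome 7 the share in papillomas was thus 0.918 times that in skin, against 1.02 times with it. DNA copy number was not measured, and its part in these values was not tested.

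The tumour against skin compares 1 library with 1 and has no test. The set's share of counts in the tumour was 0.709 times that in skin (95% interval 0.706 to 0.713, counting error only), and 0.868 times after TMM scaling. The median log2 ratio of 42 members was -0.17 against 0.11 over all 11114 genes, and 39 of the 42 lay below the median of all genes. At 10 CPM or more, 0 of 42 members were at least 2-fold higher, where 15.5% of all genes were, and 2 were at least 2-fold lower (Rpl22 and Rpl3l), where 16.3% were. Scaled by total counts alone, 5 were at least 2-fold lower. Rpl5 had 9.95 CPM in the tumour against 19.0 CPM in skin, and Rpl15 22.0 against 38.1 CPM. Rpl7 was the highest, with 63.1 CPM in the tumour against 44.1 CPM in skin, a log2 ratio of 0.51.

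The tumorigenic mSCC-38 cells had less of nearly the whole set than the non-tumorigenic mSCC-20 cells. The share of counts in mSCC-38 was 0.593 times that in mSCC-20 (95% interval 0.590 to 0.596, counting error only), and 0.549 times after TMM scaling. The median log2 ratio of 47 members was -0.94 against -0.15 over all 9797 genes, and 46 of the 47 lay below the median of all genes. The 30 members under 10 CPM had a median of -1.08 (nothing added). At least 2-fold lower were 18 of 47 members, where 13.8% of all genes were, and 1 was at least 2-fold higher, where 14.6% were. Scaled by total counts alone, 10 of 47 were at least 2-fold lower. The 10 CPM was asked of the higher library only, for members and for all genes. All 47 members reached it in mSCC-20 and 39 in mSCC-38. Rpl39l, Rps27a, Rpl41 and Rps25 were among those that entered only through mSCC-20, where they were high. With 1 library on each side there is no test, and other differences between these cultures could not be separated from the labelled one. The keratinocyte markers too were lower in mSCC-38, and their part was not tested.

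Rpl4 had 1030 CPM in mSCC-38 against 1879 CPM in mSCC-20, and Rpl8 had 970 against 1413 CPM. Rps27a, which is made fused to ubiquitin, had 5.61 CPM in mSCC-38 against 22.7 CPM in mSCC-20. Beside Rpl39l and Rps27a, the lowest log2 ratios included -1.36 in Rpl41, -1.25 in Rps25 and -1.25 in Rpl7. Rpl7a (-0.42), Rpl37 (-0.49), Rpl8 (-0.54), Rpl22 (-0.59) and Rps19 (-0.59) differed least among those lower.

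Each culture was also set beside the tumour biopsy, 1 library against 1. In mSCC-20 the set's share was 2.09 times that in the tumour (95% interval 2.08 to 2.10, counting error only), and 46 of 47 members lay above the median of all genes. Their median log2 ratio was 0.99, against 0.18 over all 10503 genes, and that of the 30 members under 10 CPM was 1.18 (nothing added). At least 2-fold higher were 23 of 47 members, where 24.4% of all genes were, and 1 was at least 2-fold lower, where 22.7% were. All 47 reached 10 CPM in mSCC-20 and 38 in the tumour. Rpl39l, Rps27a and Rpl5 were among those that entered only through mSCC-20. Beside Rpl39l and Rps27a, the highest were Rpl5, with 37.6 CPM in mSCC-20 against 9.95 CPM in the tumour, Rps6, with 36.6 against 11.3 CPM, and Rps27l, a p53-induced paralogue of Rps27, with 209 against 67.7 CPM. Rpl5 and Rps6 share 94.6% and 84.8% of their 35-base windows with other genes, Rps27a 74.5%, Rps27l 28.2% and Rpl39l 1.69%. Among the least raised were Rps26 (log2 ratio 0.34) and Rps29 (0.42).

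In mSCC-38 the share was 1.24 times that in the tumour (95% interval 1.23 to 1.24), and the members' median was close to that of all genes. Their median log2 ratio was 0.10 over 40 members, against 0.13 over all 10390 genes, and 18 of 40 lay above the median of all genes. None of the 40 was at least 2-fold higher or lower, where 14.3% of all genes were higher and 16.9% lower. Rpl22 was highest, with 169 CPM in mSCC-38 against 86.2 CPM in the tumour (log2 ratio 0.97), and Rps26 lowest, with 139 against 216 CPM (-0.64).

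**Figure D4:**
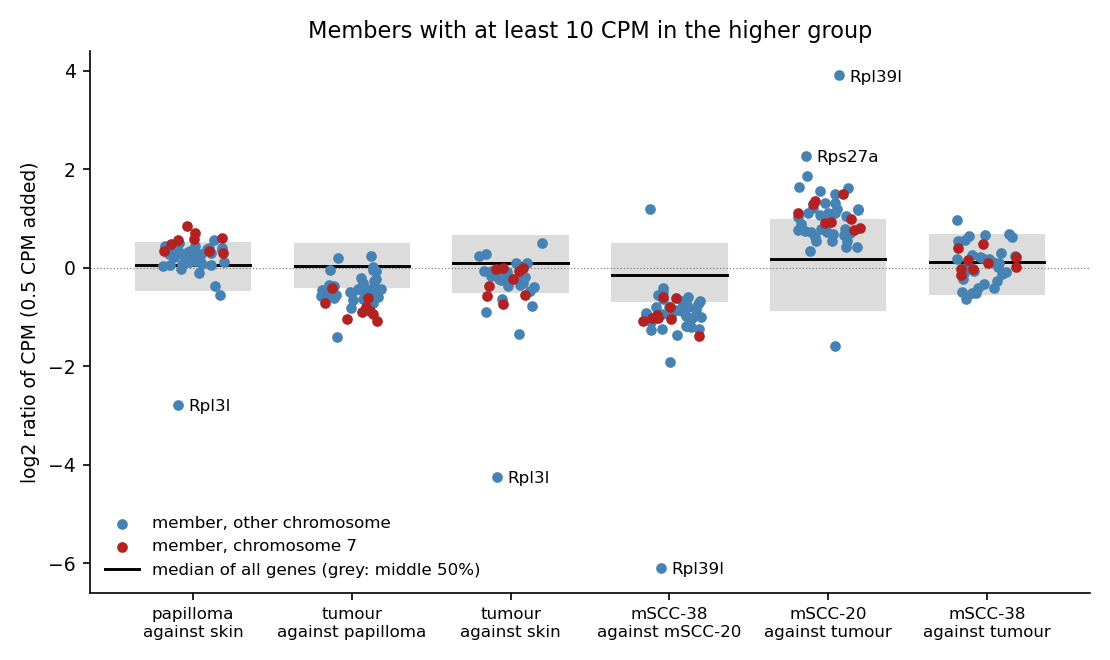
Log2 ratio of CPM (0.5 CPM added) for each member that reached 10 CPM in either group, 40 to 47 members per comparison, with members on chromosome 7 in red. Black lines mark the median of all genes and grey boxes its middle 50%. Members lie mostly below the black line in the tumour against papilloma and in mSCC-38 against mSCC-20, and mostly above it in mSCC-20 against the tumour.

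Some members have a paralogue used in particular tissues, and these behaved apart from the set. Rpl3l had 1 count in mSCC-38, 2 in mSCC-20, 38 in the tumour, 82 in each papilloma and 1303 in skin. Its level therefore followed the order tumour, papillomas, skin of the summed muscle markers. Per length, Rpl3l had 0.56 RPKM in the tumour, 2.07 and 1.74 in papillomas 1 and 2 and 19.9 in skin, above Rpl3 at 0.24, 0.18, 0.20 and 0.20 RPKM. In the cultures the order was the other way, with 0.020 RPKM of Rpl3l in mSCC-38 and 0.040 in mSCC-20 against 0.29 and 0.38 RPKM of Rpl3. Rpl3 shares 86.9% of its windows with other genes and Rpl3l none. Rpl39l, a paralogue of Rpl39 best known from testis, had 1 count in mSCC-38 against 1106 in mSCC-20, 81 in the tumour, 61 and 102 in papillomas 1 and 2 and 225 in skin. Per total counts, mSCC-38 had 0.0907% of the mSCC-20 value (95% interval 0.00229% to 0.506%, counting error only), and mSCC-20 had 18.9 times the tumour value (95% interval 15.1 to 24.0). Rpl39 itself had 18.4 CPM in mSCC-38 against 42.4 CPM in mSCC-20. Of the Rpl39l windows, 1.69% are shared with other genes.

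For the other pairs, levels per length are mean RPKM over the 6 libraries. Rps27l had 220 RPKM and Rps27 1.59 RPKM, with 28.2% and 98.7% of windows shared with other genes. Rpl36al, which lies outside the name rule, had 64.2 RPKM and Rpl36a 6.39 RPKM, with 64.4% and 86.6% shared. Rpl7 had 66.0 RPKM against 36.6 RPKM for Rpl7l1, and Rpl22 had 97.8 RPKM against 12.1 RPKM for Rpl22l1. Rpl10 had 0.762 RPKM and Rpl10l, a testis paralogue, 0.0217 RPKM with at most 1 count in any library. Rpl36al rose in papillomas, with 52.1 and 42.1 CPM against 23.4 CPM in skin (log2 fold change 1.01, SE 0.19, edgeR adjusted p = 0.0254), and fell in the tumour, with 26.8 CPM (-0.82, SE 0.19, edgeR adjusted p = 0.0414).

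Of the ribosomal proteins outside the name rule, Rpsa and Rplp1 fell in the tumour against the papillomas. Rpsa fell to 31.4 CPM in the tumour against 67.2 and 57.1 CPM in the papillomas (-0.99, SE 0.17, edgeR adjusted p = 0.0211), and Rplp1, of the stalk, to 103 CPM against 174 CPM in each papilloma (-0.76, SE 0.18, edgeR adjusted p = 0.0442). Rplp0 (148 CPM in the tumour against 212 and 222 CPM), Rplp2 and Fau were not called in that comparison, and none of these 5 was called in papillomas against skin.

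The genes that build ribosomes were compared through a list of 47 assembly factors. In papillomas against skin 17 of 47 rose and none fell by edgeR, where 12.0% of all genes rose and 14.1% fell. DESeq2 called 24 higher and 0 lower, where 14.4% of all genes were higher and 10.6% lower. The median log2 ratio was 0.65. Eif6, which keeps new large subunits from joining small ones too early, rose to 309 and 227 CPM in the papillomas against 86.4 CPM in skin (1.64, SE 0.28, edgeR adjusted p = 0.0207). Grwd1, a chaperone of Rpl3, rose to 73.3 and 53.2 CPM against 25.6 CPM (1.31, SE 0.24, edgeR adjusted p = 0.0237). Smaller called changes were those of Pno1 (0.67) and Lsg1 (0.73), factors of the small and large subunit. In the tumour against the papillomas none of 47 rose, where 11.9% of all genes did, and 2 fell, a smaller share than the 10.6% of all genes. These were Grwd1, at 31.3 CPM in the tumour against 73.3 and 53.2 CPM (-1.02, SE 0.24, edgeR adjusted p = 0.0417), and Polr1b, a subunit of RNA polymerase I, at 41.2 CPM against 68.0 and 60.4 CPM (-0.65, SE 0.16, edgeR adjusted p = 0.0475). Between the cultures, 37 of 46 assembly factors were at least 2-fold lower in mSCC-38 than in mSCC-20, where 13.8% of all genes were, with a median of -1.37. In mSCC-20 against the tumour, 43 of 46 were at least 2-fold higher, where 24.4% of all genes were, with a median of 1.70. The median of the assembly list in the tumour against papillomas was -0.33. The cytosolic ribosomal proteins had medians of 0.30 in papillomas against skin, where edgeR called 0 members higher and total counts alone gave -0.13, and of -0.49 in the tumour against papillomas. The difference between the lists was not tested.

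The 76 mitochondrial ribosomal protein genes, which share little sequence with pseudogenes, give a second set of ribosomal proteins. In papillomas against skin 6 of 76 rose, a smaller share than the 12.0% of all genes, and none fell, where 14.1% did (median 0.28). The highest was Mrpl17 with 107 and 92.5 CPM in the papillomas against 43.3 CPM in skin (1.21, SE 0.19, edgeR adjusted p = 0.0177). In the tumour against papillomas 2 of 76 rose and 6 fell (median -0.24), both smaller shares than the 11.9% and 10.6% of all genes, with Mrps22 lowest at 16.6 CPM in the tumour against 37.6 and 33.8 CPM (-1.11, SE 0.17, edgeR adjusted p = 0.0148). In mSCC-38 against mSCC-20, 23 of 71 were at least 2-fold lower and 1 higher (median -0.86), where 13.8% of all genes were lower and 14.6% higher. In mSCC-20 against the tumour 48 of 71 were at least 2-fold higher and 1 lower (median 1.32), where 24.4% of all genes were higher and 22.7% lower. Their share of counts was 0.320% in mSCC-38, 0.520% in mSCC-20, 0.218% in the tumour, 0.216% and 0.227% in papillomas 1 and 2 and 0.240% in skin.

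Next came 25 translation factors and related genes whose messages carry the oligopyrimidine tract. This list also held ribosomal proteins outside the name rule, among them Rpsa and Rplp1. In papillomas against skin 2 of the 25 rose and 1 fell (median 0.36), smaller shares than the 12.0% and 14.1% of all genes. Btf3 and Eef1g rose, with log2 fold changes of 0.73 and 0.64, and Naca fell (-0.68). In the tumour against papillomas 2 fell, the Rpsa and Rplp1 given above, and none rose (median -0.12), where 10.6% of all genes fell and 11.9% rose. The median of the list was -0.78 in mSCC-38 against mSCC-20 and 0.97 in mSCC-20 against the tumour. A list of 21 genes was made for the Myc and mTOR pathways and also held Mdm2, the ligase of p53. Of these 21 genes, 4 rose and 2 fell in papillomas against skin, where 12.0% of all genes rose and 14.1% fell. Mxd1, a Myc antagonist, rose most (2.05, SE 0.32, edgeR adjusted p = 0.0170), followed by Eif4ebp1 (0.85), and Mycl1 (-2.02) and Maf1 (-0.66) fell. In the tumour against papillomas 2 rose and 2 fell, where 11.9% of all genes rose and 10.6% fell. Myc had 184 CPM in the tumour against 88.5 and 99.7 CPM in the papillomas (0.96, SE 0.18, edgeR adjusted p = 0.0244), and Mdm2 166 against 83.4 and 78.2 CPM (1.04, SE 0.17, edgeR adjusted p = 0.0171). Rps6kb2, a kinase of Rps6, fell to 21.3 CPM against 81.0 and 75.4 CPM (-1.88, SE 0.16, edgeR adjusted p = 0.00462), and Mxi1 fell by 0.84 on the log2 scale. In papillomas against skin Myc rose too, with 88.5 and 99.7 CPM against 57.0 CPM in skin (0.73, SE 0.19, edgeR adjusted p = 0.0498). The cultures had 91.4 CPM of Myc in mSCC-38 against 231 CPM in mSCC-20. The log2 ratio of Myc was 1.68 in the tumour against skin, beside the members' median of -0.17. It was -1.33 in mSCC-38 against mSCC-20, beside a median of -0.94, and 0.33 in mSCC-20 against the tumour, beside 0.99. In mSCC-38 against the tumour Myc had 91.4 against 184 CPM, beside a median of 0.10.

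**Figure D5:**
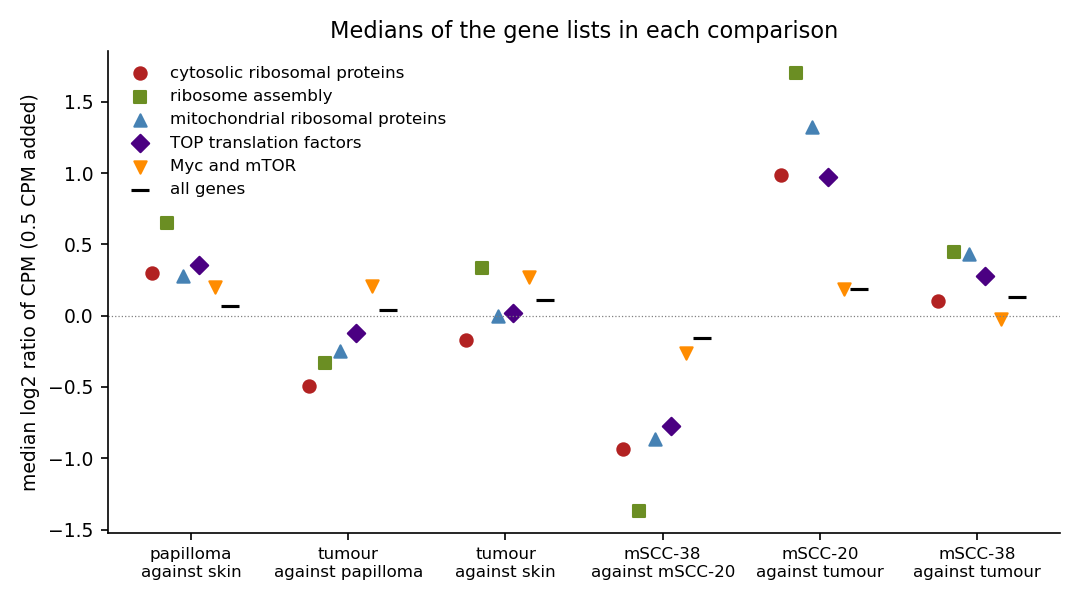
Median log2 ratio of CPM (0.5 CPM added) of the cytosolic ribosomal proteins and of 4 comparison lists over genes that reached 10 CPM in either group, for each comparison, with the median of all genes as a black dash. In mSCC-20 against the tumour the assembly factors stand highest at 1.70, and in mSCC-38 against mSCC-20 lowest at -1.37. The list of translation factors also holds ribosomal proteins, among them Rpsa and Rplp1.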

How the data were processed

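Per the labels' protocols, total RNA went into a library kit meant for small RNA, sequenced on SOLiD. The authors deposited whole read counts and RPKM values per gene model and library. The genome build was mm9, per the submitters' processing notes. Neither aligner, counter, strand use nor the treatment of reads with several matches is given in these sources. The deposited RPKM values were used for levels per gene length, and the deposited counts for everything else. Genes were fitted over the 4 biopsies with edgeR 4.0.16 (TMM, filterByExpr, quasi-likelihood test, R 4.3.3), and 16353 genes passed the filter. The fit has 1 residual degree of freedom, from the papillomas. P-values were adjusted by Benjamini-Hochberg with a threshold of 0.05; DESeq2 1.42.0 was an alternative. CPM for the text used TMM factors over all 6 libraries, from 0.848 in papilloma 1 to 1.20 in skin. Log2 ratios have 0.5 CPM added, which understates changes of low genes. Comparisons of 1 library with 1 have no test: a gene past 2-fold also needs 10 CPM in the higher library. Genes named are the 6 highest and 6 lowest members per comparison, paralogue pairs, Rpl5, Rpl11 and Rps6, the 5 highest and 5 lowest by mean RPKM and, per comparison list, the 2 highest and 2 lowest called; related ribosomal proteins and members called were added. Some genes that these rules pick are not reported here. The members and lists were chosen with earlier results of these data known. The split by chromosome 7 was made after seeing these values.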

Additional observations from a re-analysis of the deposited data

How the results depend on the processing

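No paired analysis was possible because the labels do not say whether any of the biopsies came from the same animal. The papilloma against skin count of 1 called member became 2 with total counts alone (Rpl15 added, lower), 6 with DESeq2 and 3 without a filter on low counts (Rpl15 lower and Rpl18 higher added); the tumour against papilloma count of 7 became 13 with DESeq2 and 3 without members of chromosome 7. Rps15a lost its call in the tumour with total counts alone (edgeR adjusted p = 0.0526). Past 2-fold, total counts alone gave 5 members in tumour against skin, 11 in mSCC-38 against mSCC-20 and 1 in mSCC-38 against tumour, where a minimum of 1 CPM also gave 1.

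Ratios of shares follow, by setting. Without the 10 most counted models of each library they were 1.08 (papilloma against skin), 0.732 (tumour against skin), 0.587 (mSCC-38 against mSCC-20), 2.01 (mSCC-20 against tumour) and 1.18 (mSCC-38 against tumour). Without hair, muscle and keratin models they were 0.667 (tumour against papilloma), 0.688 (tumour against skin), 0.588 (mSCC-38 against mSCC-20), 2.01 (mSCC-20 against tumour) and 1.18 (mSCC-38 against tumour). With TMM-scaled totals they were 1.36 (papilloma against skin), 0.636 (tumour against papilloma), 0.868 (tumour against skin), 0.549 (mSCC-38 against mSCC-20), 2.06 (mSCC-20 against tumour) and 1.13 (mSCC-38 against tumour). Without the 5 most counted members the papilloma against skin ratio reversed to 0.902, and the others were 0.787 (tumour against papilloma), 0.578 (mSCC-38 against mSCC-20), 1.98 (mSCC-20 against tumour) and 1.14 (mSCC-38 against tumour). Without members of chromosome 7, a setting chosen after seeing the data, it reversed to 0.918, beside 0.779 (tumour against papilloma), 0.714 (tumour against skin), 0.618 (mSCC-38 against mSCC-20), 2.07 (mSCC-20 against tumour) and 1.28 (mSCC-38 against tumour). With the 3 ribosomal pseudogene models of the deposited data added, mSCC-20 against tumour was 2.07 and mSCC-38 against tumour 1.23. Most of the counts so added were of Rplp2-ps1, named after Rplp2, a gene outside the set. This setting does not measure reads lost to pseudogenes that have no model in these data. Leaving out each papilloma in turn, also chosen later, gave 0.995 to 1.04 for papilloma against skin, so papilloma 1 alone lies below skin, and 0.680 to 0.713 for tumour against papilloma.

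The median log2 ratio of members was, with total counts alone, -0.13 in papilloma against skin (reversed), -0.35 in tumour against papilloma, -0.47 in tumour against skin, -0.83 in mSCC-38 against mSCC-20, 1.01 in mSCC-20 against tumour and 0.23 in mSCC-38 against tumour. With DESeq2 size factors it was -0.23 (tumour against skin), -0.90 (mSCC-38 against mSCC-20), 0.90 (mSCC-20 against tumour) and 0.056 (mSCC-38 against tumour). With 0.1 and 2 CPM added it was -0.97 and -0.93 (mSCC-38 against mSCC-20) and 1.01 and 0.93 (mSCC-20 against tumour). Over every member with a count it was -0.094 (tumour against skin), -0.87 (mSCC-38 against mSCC-20), 0.94 (mSCC-20 against tumour) and 0.051 (mSCC-38 against tumour). Leaving out each papilloma gave 0.29 to 0.32 in papilloma against skin and -0.54 to -0.45 in tumour against papilloma. With either papilloma left out, the members past 2-fold stayed at 1 in papilloma against skin and numbered 2 to 3 in tumour against papilloma.

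Among single genes without a call, the fitted change turned sign for Rps27l in papilloma against skin (0.017 with DESeq2 size factors and 0.017 with DESeq2), for Rps21 there with total counts alone (-0.37), and in tumour against papilloma with total counts alone for Rps27l (0.054), Rps7 (0.088) and Rpl23 (0.087). The cause of these shifts was not tested. Ratios from the deposited RPKM also differed from those with TMM. For Rps26 in papilloma against skin, the log2 ratio was 0.14 with RPKM, 0.14 with total counts alone and 0.56 with TMM. Members under 100 counts and those that share most of their sequence set the limit of precision: for them a low count need not be a low level.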
